A study of Mus musculus with 8 samples.

Results

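The genes described here are 9 transcription factors and cofactors that direct the muscle lineage: the paired-box genes Pax3 and Pax7, the myogenic basic helix-loop-helix (bHLH) genes Myf5, Myod1, Myog and Myf6, the homeobox gene Six4 and its coactivators Eya1 and Eya4. They were taken by symbol from a table of 36048 genes, and all 9 were found. RNA had been sequenced from mouse skeletal muscle in 8 libraries: 2 of satellite cells (SC, replicates 1 and 3), the muscle stem cells beside the fibres, 3 of single muscle fibres (SMF), the contractile cells, and 3 of endothelial cells (EC), which line the vessels. SC and EC came from hindlimb muscles by cell sorting, at about 100000 cells each time. For SMF, 100 intact fibres of the EDL, a muscle of the lower hindlimb, were picked by hand after 3 h at rest. Thus, in the comparisons with SMF, population, way of isolation and muscle of origin changed together. No treatment, strain, age, sex, sorting marker or number of animals is given in the labels, so p-values reflect library-to-library spread that may be only technical.

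Pax3 and Pax7 specify muscle progenitors, Pax7 being the defining factor of adult satellite cells. The myogenic bHLH factors bind the E-box of muscle genes as dimers with ubiquitous E proteins: Myf5 and Myod1 commit cells to the lineage, Myog drives their differentiation into fibres, and Myf6, also called Mrf4, is known as the member most abundant in adult fibres. Six-family proteins bind the MEF3 site, which lies in the Myog promoter among others, and Eya proteins, which do not bind DNA themselves, join them as coactivators.

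The Myog promoter is shown because it holds, within a short stretch, sites for several of the regulators measured here. It is the window of 250 bases before the RefSeq start in GRCm38.p6, the assembly that mm10 names (chr1:134289754-134290003, plus strand), with motif matches in capitals.
Myog: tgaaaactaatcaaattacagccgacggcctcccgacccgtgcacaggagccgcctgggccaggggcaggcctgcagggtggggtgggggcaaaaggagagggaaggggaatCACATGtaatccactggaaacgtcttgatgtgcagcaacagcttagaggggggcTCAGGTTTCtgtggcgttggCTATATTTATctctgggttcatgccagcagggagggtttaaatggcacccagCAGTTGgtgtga

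The capitals mark, in order, an E-box (CANNTG) from -138 to -133, a MEF3 site (TCAGGTTTC) from -84 to -76, the site known from this promoter to bind Mef2 factors (the 10 letters in capitals there) from -64 to -55, and an E-box from -12 to -7, counted from the base before the start as -1. Both strands were searched, and no match overlapped another. An E-box was found in 66.2% of 32851 RefSeq windows of the same length, the MEF3 letters in 0.387% and the Mef2 letters in 0.0700%. All 3 motifs together stood in 2 windows, that of Myog and that of Myoparr, which starts on the opposite strand and overlaps it. The Mef2 letters were taken from this Myog site itself, so its match was fixed in advance. Other forms of a Mef2 site were not searched for. The rarity of these letters, alone or in combination, is therefore no finding about Myog. RefSeq windows were matched for 5 of the 9 genes: Myog, Pax7, Myf5, Six4 and Eya4. A MEF3 match on the other strand stood from -99 to -91 before a start of Six4 itself (chr12:73113326-73113354, minus strand), shown with 10 bases on either side and the match in capitals.
Six4: tggcctggggGAAACCTGAtcggccagat

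This Six4 match lies between the ends of the only listed Six4 transcript (73099609 to 73113425). The window before the start of that transcript (73113426 to 73113675) held no MEF3 match. Eya4 had an E-box from -56 to -51 before its second start. None of these motifs was matched in the windows of Pax7 and Myf5, which says only that these letters are absent there.

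**Figure D1:**
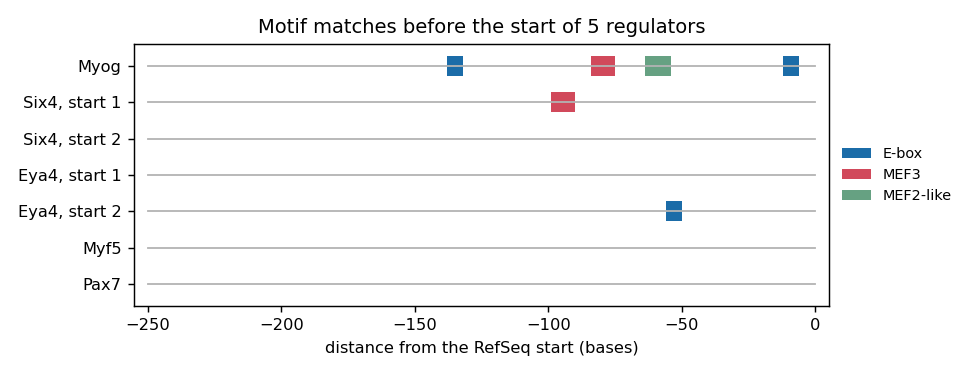
Matches to the E-box, MEF3 and Mef2 motifs (coloured bars) in the windows before each RefSeq start of 5 genes, by distance from the start in bases. Myog holds 2 E-boxes, 1 MEF3 and 1 Mef2-like match, Six4 a MEF3 match and Eya4 an E-box.

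Values below are FPKM, fragments per kilobase of RNA scaled to library size. Levels of different genes can be set side by side only with the limit that they depend on the length used for each gene. These lengths are taken up further below. From the deposited transcript coverage, 278 to 368 Mb were aligned per SC or EC library and 525 to 581 Mb per SMF library, and a fragment of 100 bases on a gene of 1 kb is worth 0.172 to 0.360 FPKM. The labelled populations carried their markers. The 8 satellite cell markers summed to 724 and 725 FPKM in SC, 21.5 to 24.9 in SMF and 22.3 to 26.3 in EC, and Calcr, the calcitonin receptor gene among them, named after its values were seen, had a listed 0 in each SMF and EC library. The 8 fibre markers summed to 172 and 273 FPKM in SC, 30430 to 33317 in SMF and 12.1 to 19.8 in EC, and the 8 endothelial markers to 26.4 and 18.4 in SC, 4.18 to 4.73 in SMF and 1259 to 1316 in EC. The 6 fibro-adipogenic markers summed to 256 and 252 FPKM in SC, 22.1 to 43.5 in SMF and 17.6 to 83.5 in EC, and 2 of 6 were called higher in SC than in EC. The 8 pericyte and smooth muscle markers summed to 205 and 257 in SC, 29.0 to 30.6 in SMF and 298 to 725 in EC. Of these 8, 1 (Acta2) was called higher and 5 lower in SC than in EC. Acta2 alone held 135 and 194 FPKM in SC, and Abcc9 alone 21.5 to 22.7 in SMF. The 6 immune markers summed to 26.8 and 31.9 in SC, 1.01 to 3.41 in SMF and 10.3 to 77.4 in EC. The 5 Schwann cell markers summed to at most 5.20 in any library. The part of these cells in the values below was not tested. A lower level in a library can come from fewer cells of a type or from less RNA per cell, which cannot be told apart in bulk samples.

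Differences were tested with limma on log2(FPKM + 1) over the 16700 genes that reached 1 FPKM in at least 2 libraries, two-sided, with Benjamini-Hochberg adjustment over all of them. All 9 regulators passed this filter. Pax7, Myf5 and Myog passed it through the SC libraries alone and Myf6 through the SMF libraries alone, so that these genes had to differ somewhere. Pax3 also needed the SC libraries to pass, since outside them only EC replicate 1 reached 1 FPKM. Fold changes on this scale understate the change of low genes. Against endothelial cells, all 9 genes were called higher in SC, where 21.2% of all genes were called higher and 37.7% called in either direction. Between SC and SMF, 6 were higher in SC (56.5% of all genes), 1 was lower (8.57% of all genes) and 2 were not called (65.1% of all genes called in either direction). Between SMF and EC, 6 were higher in SMF (10.8% of all genes), 0 were lower (55.5% of all genes; 0 also at an unadjusted p under 0.05) and 3 were not called (66.3% of all genes called in either direction).

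A few very abundant RNAs took a larger share of the SMF libraries. The 10 most abundant genes took 76.2% to 78.9% of all FPKM in SMF, 63.7% to 66.8% in SC and 70.9% to 75.1% in EC. The median gene stood 0.93 log2 units higher in SC than in SMF as deposited, 0.21 after median-of-ratios scaling and 0.44 after scaling on the genes outside the top 50 of any group. The share of calls that were higher in SC was 86.8%, 55.1% and 69.2% under these 3 scalings. Between SMF and EC the median gene stood at -0.85, -0.20 and -0.55 log2 units (SMF minus EC), and the share of calls higher in SMF was 16.3%, 43.4% and 27.2%. For SC minus EC these medians were 0.11, -0.01 and -0.12 and the shares of calls higher in SC 56.3%, 47.4% and 39.0%.

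**Figure D2:**
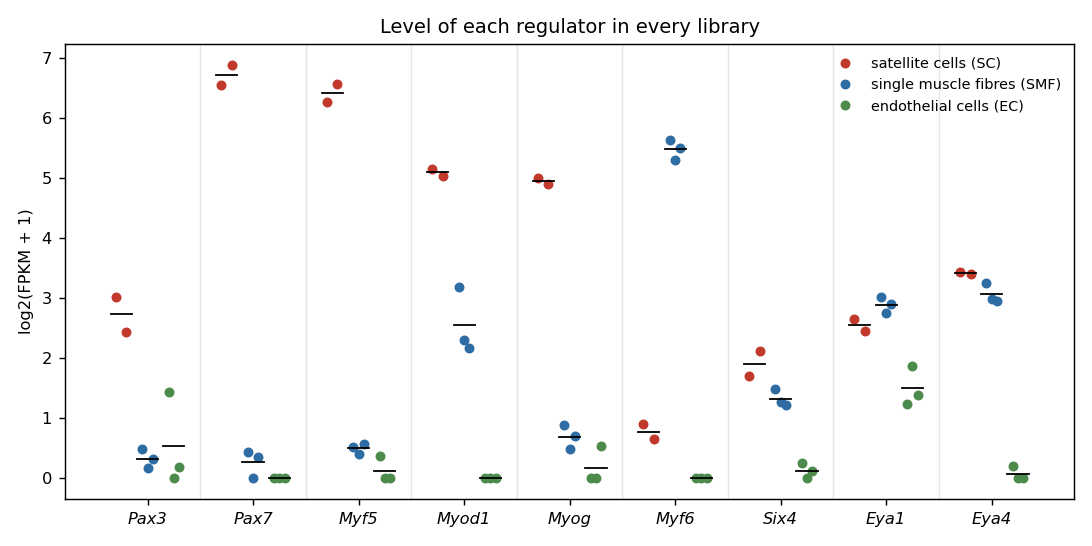
Level of the 9 regulators on the log2(FPKM + 1) scale in every library (points) of satellite cells, single muscle fibres and endothelial cells, with the mean of each group (lines). Pax7, Myf5, Myod1 and Myog are high in SC, Myf6 is high in SMF, and Six4, Eya1 and Eya4 lie near each other in SC and SMF.

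Among the progenitor factors, Pax7 (ENSMUSG00000028736, chromosome 4, 139737059 to 139833530, GRCm38) stood at 93.6 and 118 FPKM in SC, at 0.349, 0 and 0.282 in SMF replicates 1 to 3, with 0 listed for each EC library. Both SC libraries stood far above every other library. The log2 difference was 6.47 for SC minus SMF (SE 0.18, adjusted p = 5.83e-07, limma) and 6.73 for SC minus EC (SE 0.18, adjusted p = 6.76e-07, limma). The Pax7 coverage amounted to 162170 and 189610 bases in SC against 1188, 0 and 867 bases in SMF, where a read pair covers at most 100 bases. The SMF mean was 0.199% of the SC mean, and the difference between SMF and EC was not called (log2 0.26, 95% interval -0.11 to 0.64, adjusted p = 0.184, limma), nor was it under the other scalings (0.45 and 0.35).

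Pax3 (ENSMUSG00000004872, chromosome 1, 78101267 to 78197136), the paralogue best known from the embryonic limb bud, stood at 7.13 and 4.44 FPKM in SC, at 0.407, 0.127 and 0.250 in SMF, and at 1.72, 0 and 0.134 in EC. SC libraries lay above all others, and EC replicate 1 stood apart from the other EC libraries. In that library Pax7, Myod1, Myog and Myf6 were listed at 0 and Myf5 stood at 0.293 FPKM. On the log2 scale the difference was 2.19 for SC minus EC (SE 0.42, adjusted p = 0.00498, limma) and 2.40 for SC minus SMF (SE 0.42, adjusted p = 0.00149, limma). Without SC replicate 1 the call against EC was lost (log2 1.90, adjusted p = 0.0525, limma). SMF and EC overlapped (log2 -0.21 for SMF minus EC, adjusted p = 0.637, limma), and the sign turned without EC replicate 1 (0.24) and under median-of-ratios scaling (0.14). Pax3 made up 7.08% and 3.63% of the summed Pax3 and Pax7 gene FPKM of the SC libraries. By TPM, Pax3 stood at 7.68 and 7.13 and Pax7 at 69.8 and 99.95 in these libraries, so this share depends on the unit. Of 7 other Pax genes listed for comparison, 6 were found and none passed the filter, and their summed level did not exceed 2.06 FPKM in any library.

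The listed Pax3 transcripts differed between the SC libraries. In SC replicate 1, the transcript of 8 exons and 3863 nt (ENSMUST00000087086) held 10.1 FPKM and that of 9 exons and 3078 nt (ENSMUST00000004994) was listed at 0. In SC replicate 3 the same transcripts held 0.740 and 6.93 FPKM. The transcript of 5 exons and 3271 nt (ENSMUST00000172555) held 1.53 and 1.00 FPKM. The replicates thus disagree on which Pax3 transcript leads, and no group difference in transcript use can be read from them.

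The commitment factor Myf5 (ENSMUSG00000000435, chromosome 10, 107482908 to 107486927) stood at 76.7 and 93.8 FPKM in SC, at 0.441, 0.328 and 0.480 in SMF, and at 0.293, 0 and 0 in EC. Its level in SC overlapped that of Pax7, the only regulator above it. The log2 difference was 5.92 for SC minus SMF (SE 0.18, adjusted p = 6.55e-07, limma) and 6.30 for SC minus EC (SE 0.18, adjusted p = 6.76e-07, limma). The SMF minus EC difference of 0.38 was not called (95% interval 0.01 to 0.74, adjusted p = 0.0659, limma), though it was called under both other scalings (0.74 and 0.57). The SMF libraries held 389 to 533 bases of Myf5 coverage, so this comparison rests on a few read pairs.

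Myod1 (ENSMUSG00000009471, chromosome 7, 46376474 to 46379092), which can turn other cells into muscle when expressed in them, stood at 34.5 and 32.0 FPKM in SC, at 8.09, 3.92 and 3.52 in SMF, and at a listed 0 in each EC library. The groups did not overlap, and SMF replicate 1 was the highest of the fibre libraries. On the log2 scale the difference was 2.54 for SC minus SMF (SE 0.29, adjusted p = 0.000144, limma), 5.10 for SC minus EC (SE 0.29, adjusted p = 9.01e-06, limma) and 2.55 for SMF minus EC (SE 0.26, adjusted p = 6.15e-05, limma). These calls held under both other scalings, where the difference between SC and SMF narrowed to 1.10 and 1.59. The SMF mean of Myod1 was 15.6% of its SC mean, against 0.199% for Pax7 and 0.488% for Myf5. For the 8 satellite cell markers this share ran from 0 for Calcr to 10.9% for Itga7 (also named after its values were seen), with a median of 0.517%, so that Myod1 lay above all 8. The part of satellite cell RNA in the SMF value of Myod1 was not tested.

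Myog (ENSMUSG00000026459, chromosome 1, 134290004 to 134292548), the differentiation factor, stood at 31.0 and 28.9 FPKM in SC, at 0.857, 0.395 and 0.624 in SMF, and at 0, 0 and 0.445 in EC. The SC libraries stood far above the rest, while the ranges of SMF and EC overlapped. The log2 difference was 4.26 for SC minus SMF (SE 0.21, adjusted p = 3.99e-06, limma) and 4.78 for SC minus EC (SE 0.21, adjusted p = 3.23e-06, limma). For SMF minus EC it was 0.51 (SE 0.19, adjusted p = 0.0448, limma), on coverage of 337 to 744 bases in SMF and at most 198 bases in EC. That call was lost under 10 of 15 alternatives, among them the removal of either SC library, of EC replicate 1 or 2 and of SMF replicate 1 or 3, with adjusted p up to 0.143 (limma). Both other scalings gave a larger difference that was still called (0.98 and 0.75, adjusted p = 0.00373 and 0.0110, limma). Myoparr starts on the opposite strand, and its promoter window (134289712 to 134290011) overlaps that of Myog. From its start Myoparr runs away from Myog, and no other listed gene overlapped the Myog transcript (134289989 to 134292548). The level of Myoparr was not analysed here.

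Myf6 (ENSMUSG00000035923, chromosome 10, 107492848 to 107494723) showed the opposite order. It stood at 0.873 and 0.568 FPKM in SC, at 48.8, 38.5 and 44.7 in SMF, while each EC library listed it at 0. Every SMF library lay far above both SC libraries. On the log2 scale the difference was -4.71 for SC minus SMF (SE 0.16, adjusted p = 9.27e-07, limma) and 5.48 for SMF minus EC (SE 0.14, adjusted p = 1.11e-07, limma). The small difference of 0.78 for SC minus EC was called (SE 0.16, adjusted p = 0.00617, limma), but rested on 341 and 197 bases of coverage in SC and was lost in the TPM table (adjusted p = 0.0556, limma). Under the other scalings it was 0.54 and 0.58 and still called (adjusted p = 0.0344 and 0.0270, limma). The SC mean of Myf6 was 1.64% of its SMF mean. For the 8 fibre markers this share ran from 0.0528% for Myh4 to 2.24% for Acta1, with a median of 0.591%, and the part of fibre RNA in the Myf6 value of SC was not tested. In mm10 the Myf5 and Myf6 transcripts lie on the same strand with 6725 bases between them, and their levels in SC and SMF took opposite orders.

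**Figure D3:**
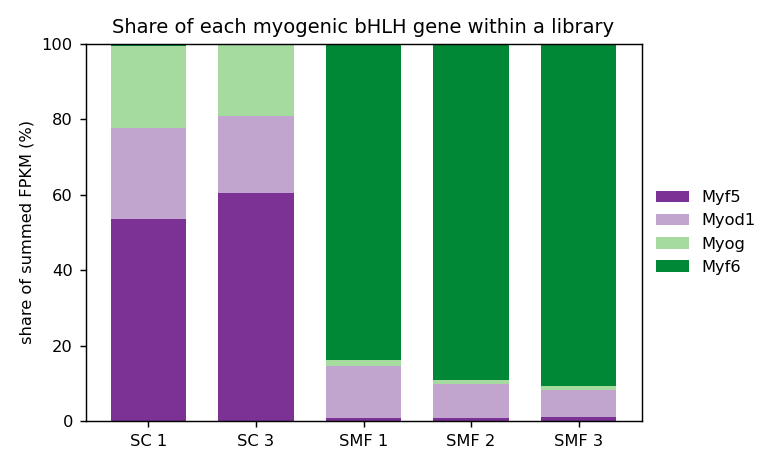
Share (percent) of Myf5, Myod1, Myog and Myf6 in their summed FPKM in each SC and SMF library. Myf5 leads in both SC libraries at 53.6% and 60.4%, and Myf6 in the 3 SMF libraries at 83.9% to 90.6%.

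Within a library, the share of each myogenic bHLH gene in their summed FPKM does not depend on the scaling. The sum was 143 and 155 FPKM in SC and 43.1 to 58.2 in SMF, against 0 to 0.445 in EC. In SC, Myf5 took 53.6% and 60.4%, Myod1 24.1% and 20.6%, Myog 21.7% and 18.6% and Myf6 0.611% and 0.366%. In SMF, Myf6 took 83.9%, 89.2% and 90.6%, Myod1 13.9%, 9.09% and 7.14%, and Myf5 and Myog at most 1.47% each. The shares of SC and SMF libraries did not overlap for any of these genes.

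The SMF means of Six4, Eya1 and Eya4 were 54.1%, 132% and 76.6% of their SC means, closer to each other than for the factors above. Eya4 (ENSMUSG00000010461, chromosome 10, 23102962 to 23350838) stood at 9.82 and 9.57 FPKM in SC, at 8.57, 6.95 and 6.75 in SMF, and at 0.146, 0 and 0.00641 in EC. By mean gene FPKM it was the most abundant of the 3 genes in both muscle populations, whereas in the TPM table Eya4 exceeded Eya1 in SC replicate 1 but in no other muscle library. Its FPKM ranges in SC and SMF came close without overlapping. The log2 difference was 3.35 for SC minus EC (SE 0.15, adjusted p = 3.52e-06, limma) and 3.00 for SMF minus EC (SE 0.14, adjusted p = 9.68e-07, limma). For SC minus SMF it was 0.35 and not called (95% interval -0.01 to 0.71, adjusted p = 0.0781, limma). It turned to -1.08 under median-of-ratios scaling (adjusted p = 0.00123, limma) and to -0.59 without the most abundant genes (adjusted p = 0.0230, limma), so these data give no fixed direction.

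Eya1 (ENSMUSG00000025932, chromosome 1, 14168953 to 14311035) stood at 5.27 and 4.46 FPKM in SC, at 7.11, 5.78 and 6.46 in SMF, and at 1.35, 2.66 and 1.62 in EC. By gene FPKM all SMF libraries lay above both SC libraries. By TPM, SC replicate 3 (8.19) lay above SMF replicates 2 and 3 (8.08 and 7.35). There SC minus SMF was -0.19 and not called (adjusted p = 0.580, limma). Eya1 was the regulator with the highest mean level in EC. In EC replicate 1, however, Pax3 stood above it (1.72 against 1.35 FPKM). On the log2 scale the difference was 1.39 for SMF minus EC (SE 0.19, adjusted p = 0.000341, limma) and 1.05 for SC minus EC (SE 0.21, adjusted p = 0.00616, limma). The second of these was lost without the most abundant genes (0.72, adjusted p = 0.0565, limma). SC minus SMF was -0.34 and not called as deposited (95% interval -0.84 to 0.15, adjusted p = 0.188, limma), and -1.70 and -1.23 under the other scalings, where it was called (adjusted p = 0.000695 and 0.00370, limma). EC replicate 2 held the highest Eya1 level among EC libraries. That library had the lowest summed level of the 6 fibro-adipogenic markers (17.6 FPKM, against 75.9 and 83.5 in EC replicates 1 and 3), of the 8 pericyte and smooth muscle markers (298 against 600 and 725) and of the 6 immune markers (10.3 against 55.7 and 77.4). Which cells the Eya1 RNA of the EC libraries came from was not tested.

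Six4 (ENSMUSG00000034460, chromosome 12, 73099609 to 73114031) was low, at 2.25 and 3.35 FPKM in SC, 1.80, 1.41 and 1.34 in SMF and 0.193, 0 and 0.0916 in EC. The 3 groups did not overlap. In EC replicate 1 the only listed Six4 transcript held 0 FPKM and 0 bases of coverage. The log2 difference was 1.78 for SC minus EC (SE 0.19, adjusted p = 0.000263, limma) and 1.20 for SMF minus EC (SE 0.17, adjusted p = 0.000439, limma). SC minus SMF was 0.59 (SE 0.19, adjusted p = 0.0272, limma), but -0.50 under median-of-ratios scaling (adjusted p = 0.0412, limma) and -0.12 without the most abundant genes (adjusted p = 0.663, limma). It was also lost without SC replicate 3 (0.38, adjusted p = 0.130), SMF replicate 2 (adjusted p = 0.0821) or SMF replicate 3 (adjusted p = 0.0855, limma), with a pseudocount of 0.1 (adjusted p = 0.175, limma) and with no filter on low values (adjusted p = 0.0657, limma).

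**Figure D4:**
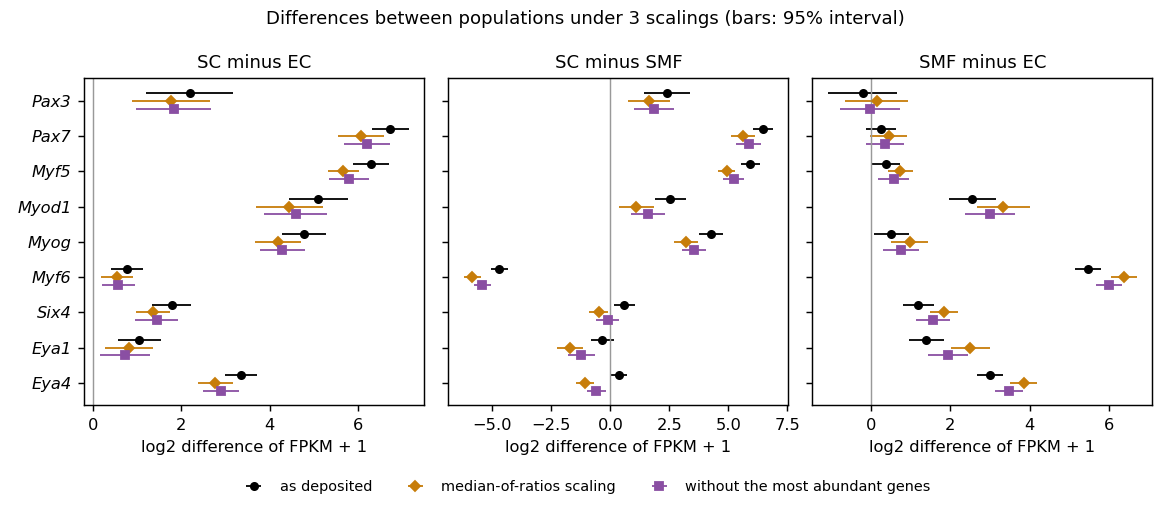
Log2 differences of the 9 regulators in the 3 comparisons, with 95% intervals from limma, as deposited and under 2 other scalings. Pax7, Myf5, Myod1, Myog and Pax3 stay above 0 and Myf6 below 0 for SC minus SMF, whereas Six4 and Eya4 change sign between scalings.

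Gene and transcript values are on different lengths. For Pax3, Eya1 and Eya4 the deposited gene FPKM equalled the summed product of transcript FPKM and transcript length over a fixed length of 6187, 7632 and 4192 nt in every library above 0. This length exceeds the longest listed transcript of each gene, and the gene value stood below the summed transcript FPKM. That sum was 11.7 and 8.67 FPKM for Pax3 in SC, against gene values of 7.13 and 4.44, and 13.2, 11.7 and 12.4 for Eya1 in SMF, against 7.11, 5.78 and 6.46. For Pax7 and Six4 no fixed length fitted, as the implied length ran from 5538 to 5860 nt and from 0 to 10855 nt between libraries. In the deposited TPM table, Eya1 stood at 6.17 and 8.19 TPM in SC and 9.51, 8.08 and 7.35 in SMF, and Eya4 at 6.71 and 8.16 in SC and 6.34, 4.91 and 4.08 in SMF. Eya4 lay above Eya1 by mean gene FPKM in SC and SMF, but by TPM it lay below Eya1 in every SMF library and in SC replicate 3. By summed transcript FPKM, Eya4 lay below Eya1 in SMF too, at 8.79, 7.12 and 6.91, so the order of these genes depends on the unit. Short genes overlap Eya1 (Gm22616 and Gm37444) and Eya4 (Gm24655), each at no more than 3.23 FPKM in any library, and reads may be shared with them.

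Most Eya1 RNA was assigned to a transcript of 18 exons (ENSMUST00000168081, 4366 nt), with 8.01 and 6.91 FPKM in SC and 8.76, 7.78 and 9.67 in SMF. In EC it held 2.27, 3.46 and 0.185 FPKM, and in EC replicate 3 a transcript that also has 18 exons (ENSMUST00000027066) led at 2.58 FPKM. A transcript of 2 exons and 3677 nt (ENSMUST00000185329) held 0.931 and 0.438 FPKM in SC and 3.18, 1.64 and 1.69 in SMF. All SMF libraries lay above both SC libraries in this transcript, a difference that was not tested. Eya4 was assigned to its transcript of 4091 nt in SMF, while that of 3488 nt held 0.879 and 0.880 FPKM in SC against a listed 0 in each SMF and EC library.

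**Figure D5:**
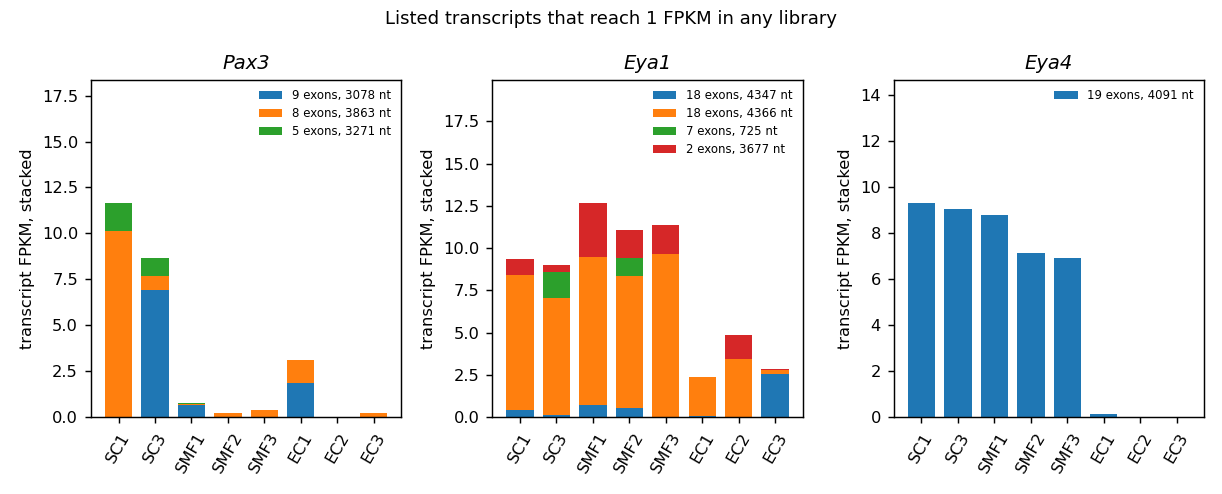
Stacked FPKM of the listed transcripts of Pax3, Eya1 and Eya4 that reach 1 FPKM in any library, by library. The leading Pax3 transcript has 8 exons in SC1 and 9 exons in SC3, while a transcript of 18 exons leads Eya1 in all SC and SMF libraries and one of 19 exons leads Eya4.

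The order of levels differed between populations. By mean gene FPKM, the SC order ran Pax7, Myf5, Myod1, Myog, Eya4, Pax3, Eya1, Six4 and Myf6. Neighbours whose SC ranges overlapped were Pax7 with Myf5 and Pax3 with Eya1. By TPM the SC ranges of Myod1 (22.7 and 26.3) and Myog (20.4 and 23.8) overlapped too. There Pax3 (7.68 and 7.13) lay within the SC range of Eya4 (6.71 and 8.16). By mean gene FPKM, the SMF order ran Myf6, Eya4, Eya1, Myod1, Six4, Myog, Myf5, Pax3 and Pax7. Overlaps joined Eya4 with Eya1, Eya1 with Myod1, and each of the last 4 with its neighbour. In EC all neighbours overlapped from Eya1 downward. Pax7 exceeded 96.9% of tested genes in SC by mean FPKM, and Myf6 exceeded 96.5% in SMF.

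Partners and inhibitors of the bHLH factors were lower in SMF than in SC. Of 12 listed genes, 9 were tested. SC had all 9 called higher than SMF, and SMF had 8 called lower than EC with 1 without a call. In the comparison with EC, SC had 2 called higher, 2 called lower and 5 without a call. The median log2 difference over the tested genes was -0.23 for SC minus EC and -2.71 for SMF minus EC, against 0.11 and -0.85 over all genes. For SC minus SMF it was 3.00, against 0.93 over all genes, and with other scalings 8 of the 9 were called higher in SC with 0 lower (0.21 and 0.44 over all genes). The inhibitor gene Id3, whose protein binds E proteins and keeps them from DNA, stood at 116 ± 13.5 FPKM in SC (SD, n = 2), 1.29 ± 0.426 in SMF and 66.9 ± 19.6 in EC (n = 3 each). Id1 stood at 43.4 ± 1.63 in SC, 1.56 ± 0.583 in SMF and 75.6 ± 36.1 in EC, and Id2 at 25.9 ± 3.20, 8.88 ± 2.48 and 29.4 ± 8.10 in the same groups. Mdfic, a relative of an inhibitor of myogenic factors, stood at 23.4 ± 0.521 FPKM in SC, 0.324 ± 0.0361 in SMF and 7.71 ± 0.886 in EC, higher in SC than in either (adjusted p = 9.36e-07 against SMF and 0.000136 against EC, limma).

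The E proteins themselves, named after their values were seen, were likewise lowest in SMF. Tcf3, which encodes E12 and E47, stood at 9.47 ± 0.397 FPKM in SC, 0.306 ± 0.0748 in SMF and 14.0 ± 1.40 in EC (log2 3.00 for SC minus SMF, SE 0.14, adjusted p = 3.28e-06, limma). Tcf4 stood at 6.20 ± 0.336 FPKM in SC, 0.814 ± 0.195 in SMF and 15.0 ± 0.750 in EC, and Tcf12 at 5.97 ± 0.617, 0.911 ± 0.136 and 7.23 ± 1.04 in the same groups. Msc, the repressor musculin, was higher in SC than in EC and SMF, at 14.9 ± 4.24 FPKM in SC, 0.332 ± 0.183 in SMF and 0.0955 ± 0.0913 in EC. It was also named after its values were seen.

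Of related genes, Six2 stood at 1.97 ± 1.21 FPKM in SC, 1.58 ± 0.618 in SMF and 0.0471 ± 0.0816 in EC, higher in SC than in EC (log2 1.45, SE 0.31, adjusted p = 0.00762, limma) and without a call between SC and SMF as deposited (log2 0.18, SE 0.31, adjusted p = 0.631, limma), though it was called lower in SC under median-of-ratios scaling. Dach1, a corepressor known to act with Six-family proteins, stood at 0.596 ± 0.170 FPKM in SC and 0.0532 ± 0.0326 in SMF against 24.4 ± 3.40 in EC (log2 -3.99 for SC minus EC, SE 0.16, adjusted p = 2.09e-06, limma).

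Of 8 known targets of Pax3 and Pax7, SC had 6 called higher than EC and 2 without a call (median log2 2.76 over the 8, against 0.11 over all genes). SC had 7 called higher than SMF and 1 without a call (median 3.53, against 0.93 over all genes), with 5 or 6 higher and 1 lower under the other scalings. SMF had 3 called higher than EC, 3 lower and 2 without a call (median 0.38, against -0.85 over all genes). Itm2a, a membrane protein gene, stood at 137 ± 3.79 FPKM in SC, 36.8 ± 1.46 in SMF and 3.32 ± 1.28 in EC. Fgfr4, a growth factor receptor gene, stood at 101 ± 7.83 FPKM in SC and at no more than 0.0756 in SMF, and was listed at 0 in EC. Spry1, an inhibitor of growth factor signalling, stood at 83.6 ± 13.3 FPKM in SC, 1.06 ± 0.394 in SMF and 28.6 ± 2.35 in EC. The list shares Fgfr4 with the satellite cell markers and Id3 with the bHLH inhibitors.

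The list of known targets of the myogenic bHLH factors held 16 symbols, 2 of which (Mymk and Tmem8c) name the same gene, and 13 were tested. It shares Cdh15 with the satellite cell markers and Ckm with the fibre markers. SC had 10 called higher than EC, 1 called lower and 2 without a call (median log2 2.25, against 0.11 over all genes). Against SMF, SC had 6 called higher, 3 lower and 4 without a call (median -0.16, against 0.93 over all genes), and 6 were lower under each of the other scalings. SMF had 9 called higher than EC, 1 lower and 3 without a call (median 1.24, against -0.85 over all genes). Among genes of adhesion and cell cycle exit, Cdh15 and Cdkn1a were higher in SC than in SMF. Cdh15, the M-cadherin gene, stood at 81.1 ± 16.3 FPKM in SC, 2.20 ± 0.551 in SMF and 0.125 ± 0.124 in EC. Cdkn1a, an inhibitor of the cell cycle, stood at 45.3 ± 14.0 in SC, 2.50 ± 0.392 in SMF and 25.8 ± 2.26 in EC, and its call against EC was lost under both other scalings. Ckm and Myl1 were higher in SMF than in SC. Ckm, the muscle creatine kinase gene, stood at 11.2 ± 4.40 FPKM in SC, 2144 ± 127 in SMF and 1.57 ± 0.655 in EC, and the light chain gene Myl1 at 18.6 ± 7.77, 1837 ± 224 and 0.787 ± 0.239 in the same groups. Des, the desmin gene, stood at 154 ± 19.6 FPKM in SC, 335 ± 20.8 in SMF and 6.45 ± 3.55 in EC, and was not called between SC and SMF as deposited (log2 -1.12, SE 0.43, adjusted p = 0.0518, limma). The cardiac actin gene Actc1 and the embryonic myosin gene Myh3, named after their values were seen, were not called between SC and SMF as deposited either (log2 -0.16 and -1.41, adjusted p = 0.466 and 0.0644, limma). Under both other scalings Des, Actc1 and Myh3 were called lower in SC. Mef2c, a partner of the bHLH factors, was lower in SC than in both other populations, at 0.509 ± 0.246 FPKM in SC, 18.4 ± 4.30 in SMF and 7.71 ± 2.14 in EC.

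The genes whose levels ran most like each regulator were taken as those with the smallest root mean square difference of log2(FPKM + 1) over the 8 libraries. For Pax7 these were Fgfr4 (0.18 log2 units) and Hmcn2 (0.21), and for Myf5 Pax7 itself (0.26) and Nppc (0.28). Pax3 ran most like Olfml1 (0.30) and Mboat1 (0.33), Myod1 like Sox9 (0.32) and Adcy2 (0.57), and Myog like Slc7a8 (0.26) and Ncam1 (0.28). Sox9, for instance, stood at 21.5 and 23.8 FPKM in SC, 6.40, 3.70 and 3.15 in SMF, and at most 0.197 in EC, the graded order seen for Myod1. The neighbours of Myf6 were Mypn (0.15) and Sypl2 (0.22), with Mypn at 0.627 ± 0.232 FPKM in SC and 50.4 ± 2.38 in SMF. Six4 ran most like Hoxc11 (0.15) and Zfp612 (0.16), Eya1 like Lsmem1 (0.24) and Pigp (0.27), and Eya4 like Lbx1 (0.24) and Rbm20 (0.28). Lbx1, a homeobox gene of migrating limb muscle progenitors, stood at 7.98 and 7.71 FPKM in SC and 8.80, 9.66 and 8.71 in SMF, against a listed 0 in each EC library. Adcy2 was the most distant of these neighbours. Since the groups set most of the variation over the 8 libraries, likeness here describes the pattern over 3 populations.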

How the data were processed

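The deposited tables hold the authors' FPKM per gene, FPKM and read coverage (signal) per transcript, and TPM per StringTie locus, per the file headers. Per the submitters' processing notes, FastQC, Trimmomatic, HISAT2, StringTie and bedtools were used with mm10. Their versions, order and strand setting are not stated there. Per the labels' protocols, random primers and a stranded kit were used on 10 ng of RNA, fragments were read as pairs of 50 bp, and 1 unnamed sample fell short of the RNA integrity set for the study. The authors' specificity score and mean TPM in the deposited TPM table were not used.

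From these values, limma 3.58.1 (R 4.3.3) was fitted with a mean-variance trend to log2(FPKM + 1), all 8 libraries, 1 mean per group and no covariate. Calls were made at an adjusted p under 0.05 over 16700 genes. Alternatives were a pseudocount of 0.1, no filter, 2 scalings, the TPM table, only the compared groups, the replicate number as a block and leaving out each library. Members and lists were chosen with earlier results of these data known. Named were all members, up to 4 abundant genes (at least 5 FPKM in a group) of each list with those called against its majority, and the 2 genes nearest each member in pattern. Genes named after their values were seen are marked as such in the text. Promoter windows are RefSeq's (GRCm38.p6). Results on some related genes are not reported here.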

Additional observations from a re-analysis of the deposited data

How the results depend on the processing

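Over the 27 differences of the 9 regulators in 3 comparisons, 18 kept their direction and their side of the threshold under all 15 alternatives. The other 9 were Eya1, Pax3 and Myf6 for SC minus EC, Eya1, Eya4 and Six4 for SC minus SMF, and Myf5, Myog and Pax3 for SMF minus EC. Signs turned for Eya4 and Six4 (SC minus SMF) under median-of-ratios scaling (-1.08 and -0.50) and without the most abundant genes (-0.59 and -0.12), and for Pax3 (SMF minus EC) under the first (0.14) and without EC replicate 1 (0.24; range -0.48 to 0.24 when each library is left out). Without the most abundant genes, SC had 2100 genes called higher than EC, against 3543 as deposited. Between SC and SMF, median-of-ratios scaling gave 4584 genes higher and 3737 lower in SC, and scaling without the most abundant genes 5863 higher and 2611 lower, against 9436 and 1431 as deposited. The regulators lower in SC than in SMF numbered 4 and 3 under these scalings, against 1 as deposited. Between SMF and EC, median-of-ratios scaling gave 4116 genes higher and 5357 lower in SMF, against 1811 and 9268. The cause of these shifts was not tested. Leaving out each EC or SMF library kept 9 regulators called for SC minus EC. It gave 6 to 7 for SC minus SMF and 5 to 6 for SMF minus EC. Over all 16700 genes, these fits called 5634 to 6395, 9816 to 11330 and 9999 to 11368 genes in the same order of comparisons. Fits with 1 SC library left assume that this library varies like the other groups. Correlations of deviations from the group mean ran from -0.058 to 0.091 for the 7 same-numbered pairs and from -0.091 to 0.058 for the others. Both SC libraries deviate as mirror images by construction, so this check cannot decide whether libraries were paired. The replicate block gave 5515, 10279 and 11020 calls over all genes, against 6288, 10867 and 11079, and 9, 6 and 5 regulators called. With the block, Six4 for SC minus SMF (0.54, adjusted p = 0.0855, limma) and Myog for SMF minus EC (0.51, adjusted p = 0.0540, limma) were no longer called. At the depths here, values under about 1 FPKM rest on few read pairs.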
